A study of Mus musculus with 15 samples.

Results

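APP-TKI mice, which carry the knock-in allele *App* NL-G-F on both chromosomes, were compared with wild-type (WT) mice by bulk RNA sequencing of the whole hippocampus. The comparison rests on 6 of the 15 libraries of the series, 3 APP-TKI and 3 WT libraries of batch 1, chosen by genotype and batch. All groups are female mice of 3 months. The knock-in allele encodes 3 mutations in and beside a humanized amyloid β (Aβ) region and is expressed from the mouse gene's own promoter, so that all cells that use *App* carry it. The WT group is of the C57BL/6JInv strain, and the APP-TKI mice are a C57BL/6 line from the RIKEN BioResource Research Center. Differences between these sources of mice cannot be told apart from those of the *App* alleles. The double-mutant (DM) libraries of the same batch, *App* NL-G-F/NL-G-F mice with a single human *APOE4* allele (Apoe4+/wt), took part in the fit and are given only where they stand beside an APP-TKI value. Levels are given as CPM, counts scaled to a common library size, and the genes described exceeded 1 CPM in 3 or more of the 15 libraries, 16171 of 55471 gene IDs, and 13911 of them are protein-coding.

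The amyloid precursor protein is cut by the β- and γ-secretases into Aβ peptides, which are cleared by peptidases such as neprilysin and by microglia, the resident macrophages of the brain. Microglia that meet Aβ deposits are known to take on a disease-associated state that depends on the receptor Trem2 and its adaptor Tyrobp, with induction of *Cst7*, *Itgax* and *Clec7a*. The integrated stress response is a separate program in which cells short of amino acids or with unfolded protein raise the translation of the transcription factor ATF4, which then switches on genes of amino acid uptake, amino acid synthesis and tRNA charging.

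The 6 libraries held 32754717 to 36790373 reads in genes. Long intergenic and antisense noncoding RNAs took 1.81% to 2.48% of the reads in WT and 1.86% to 2.27% in APP-TKI libraries, and WT library 1 and APP-TKI libraries 1 and 2 stood above the other 3. Nothing in the labels says how the 3 samples of a group were housed or dissected, so p-values measure the spread between these samples. The human Aβ bases of the knock-in allele are not visible in counts per gene, so the counts do not check the genotype. *App* itself, on chromosome 16 from 84949685 to 85173766 (GRCm38), had levels of 1312, 1436 and 1404 CPM in the WT libraries and 1302, 1188 and 1303 CPM in the APP-TKI libraries. The APP-TKI values all lay below the WT values, and the log2 fold change was -0.13 (standard error 0.06, edgeR quasi-likelihood unadjusted p = 0.066). *Apoe*, the main lipid carrier of glia, had a log2 fold change of -0.03 with overlapping libraries.

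The first question was which genes differ in expression between APP-TKI and WT mice. By edgeR's quasi-likelihood test at a Benjamini-Hochberg adjusted p under 0.1, 1 of 13911 protein-coding genes was called, a share of 0.00719%, and of all 16171 genes it was again 1, *Mid1* (0.00618%). Other fits called more protein-coding genes, 43 by the robust likelihood ratio test (0.309%), 25 with robust tagwise dispersions (0.18%), 21 by the Wald test of DESeq2 (0.151%), 33 with the noncoding share as a covariate (0.237%) and 7 in a fit blocked on replicate number (0.0503%). At an unadjusted p under 0.05, 576 of all genes passed (3.56%; 3.64% of the protein-coding genes), with 354 higher (2.19%) and 222 lower (1.37%) in APP-TKI mice. Fitted levels were higher in APP-TKI mice for 55.5% of all genes, with a median log2 fold change of 0.01. With median-of-ratios scaling that median was 0.00, and the genes at an unadjusted p under 0.05 split into 286 higher and 271 lower. The 3 APP-TKI libraries all lay above the 3 WT libraries for 761 genes (4.71%) and all below for 576 genes (3.56%), together 8.27%. With the genes ranked by mean level and split into 4 bins of equal size, 138 were higher and 38 lower at an unadjusted p under 0.05 in the lowest bin, against 44 higher and 62 lower in the highest. Leaving out APP-TKI library 3 gave 906 genes at an unadjusted p under 0.05, and leaving out WT library 3 gave 377.

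*Mid1* encodes a microtubule-associated E3 ubiquitin ligase that binds a regulatory subunit of protein phosphatase 2A. It lies on chromosome X from 169685199 to 170005736, on the forward strand. Its level was 18.0, 21.8 and 11.5 CPM in the WT libraries and 4.40, 5.22 and 5.11 CPM in the APP-TKI libraries. *Mid1* fell by 1.80 on the log2 scale (standard error 0.20, edgeR adjusted p = 0.0197), and the most abundant APP-TKI library held less than the least abundant WT library. The adjusted p was between 0.101 and 0.150 when WT library 1 or any single APP-TKI library was left out. The noncoding gene *G530011O06Rik*, which lies within *Mid1* on the opposite strand, had 1.04, 1.90 and 1.16 CPM in WT and 0.47, 0.32 and 0.28 CPM in APP-TKI libraries. Since the strand setting of the read counting is not given, reads of this pair cannot be assigned with certainty. Of 21 other expressed genes that start within 5 Mb of *Mid1*, 13 had a higher and 8 a lower level, with a median of 0.05, and at an unadjusted p under 0.05 *Arhgap6* was higher and *G530011O06Rik* lower. The groups overlapped for *Arhgap6*, at 4.21 to 5.98 CPM in WT and 6.03, 5.16 and 10.4 CPM in APP-TKI libraries. Around *App*, 81 expressed genes start within 10 Mb. Of these, 43 had a higher level, and the median was 0.01. At an unadjusted p under 0.05 *Tiam1* and *Adamts1* were higher and *Atp5o* lower. Beside both regions, 2.19% of all genes were higher and 1.37% lower at that threshold.

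Protein-coding genes with the smallest p on each side and no overlap between the groups are shown library by library in the plot of levels by gene. *Col6a4*, a chain of the collagen VI family, had 7.13, 5.55 and 3.58 CPM in WT and 1.31, 0.96 and 0.41 CPM in APP-TKI libraries. Its log2 fold change was -2.60 (standard error 0.39, edgeR adjusted p = 0.205), the second smallest p of all genes. *Rec8*, a cohesin subunit known from meiosis, had 2.12, 2.15 and 1.87 CPM in WT and 3.73, 4.05 and 3.81 CPM in APP-TKI libraries (log2 fold change 0.92, standard error 0.16, edgeR adjusted p = 0.288). The spread within each group was small beside this difference. *Itgb3*, the integrin β3 chain, had a log2 fold change of 0.69, from 1.90 to 2.15 CPM in WT and from 3.12 to 3.53 CPM in APP-TKI libraries. *Crb1*, a cell polarity gene, had 1.27 to 1.62 CPM in WT and 0.29 to 0.72 CPM in APP-TKI libraries.

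**Figure D1:**
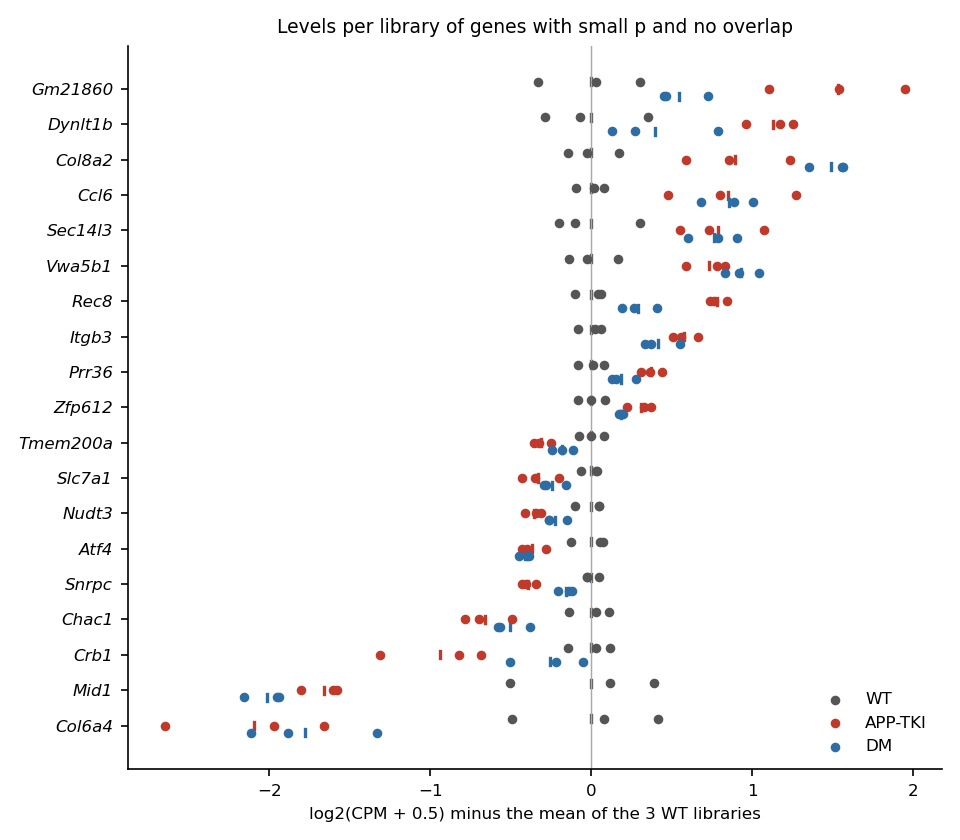
Levels of protein-coding genes in the 3 WT, 3 APP-TKI and 3 DM libraries of batch 1. The x axis gives log2(CPM + 0.5) minus the mean of the WT libraries, points are libraries and short bars are group means, and the genes run from *Col6a4* and *Mid1* at the bottom to *Gm21860* at the top.

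Some of these genes lie near each other on the genome. *Nudt3*, a phosphatase of diphosphoinositol polyphosphates, and *Snrpc*, a protein of the U1 splicing particle, start 259 kb apart on chromosome 17. *Nudt3* had 169, 188 and 188 CPM in WT and 136, 143 and 147 CPM in APP-TKI libraries, and *Snrpc* had 17.1, 18.1 and 17.2 CPM against 13.1, 12.8 and 13.7 CPM. Between them *Rps10* (log2 fold change -0.16), *Pacsin1* (0.00) and *D17Wsu92e* (0.05) had edgeR unadjusted p values of 0.605, 0.928 and 0.409. On the other side of *Nudt3*, the antisense gene *C130040N14Rik* had a log2 fold change of -1.11 (edgeR unadjusted p = 0.0015). Its level was 1.41 to 2.26 CPM in WT and 0.64 to 1.14 CPM in APP-TKI libraries. *Dynlt1b*, a dynein light chain gene, and the pseudogene *Tmem181b-ps* are neighbours on chromosome 17 from 6430112 to 6467022. *Dynlt1b* had 1.04, 1.56 and 0.83 CPM in WT and 3.35, 3.15 and 2.65 CPM in APP-TKI libraries, and *Tmem181b-ps* had 97.8, 67.1 and 65.0 CPM against 174, 188 and 134 CPM. Both have close copies, so that their reads may be shared, and the related genes *Tmem181a* and *Dynlt1a* had log2 fold changes of 0.10 and 0.04. *Bex1* (-0.41) and *Tceal7* (-0.69) overlap on opposite strands of chromosome X, and their counts carry the same doubt. *Gm21860* is annotated on chromosome Y although the mice are female, so that the source of its reads, 0.14 to 0.49 CPM in WT and 1.22 to 2.60 CPM in APP-TKI libraries, is uncertain.

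Microglial genes were examined next, since amyloid is the lesion of this model. Of 28 genes of the disease-associated list, 21 passed the filter on low counts. *Trem2* had 9.56, 11.2 and 10.7 CPM in WT and 13.8, 13.3 and 12.3 CPM in APP-TKI libraries, a log2 fold change of 0.33 (standard error 0.10, edgeR unadjusted p = 0.0073). All 3 APP-TKI libraries were above all 3 WT libraries, as they were for *Tyrobp*, its adaptor, at 9.94, 11.2 and 11.7 against 12.2, 14.7 and 12.9 CPM. *Ccl6*, a chemokine of myeloid cells, had 1.62, 1.72 and 1.46 CPM in WT and 2.42, 3.15 and 4.56 CPM in APP-TKI libraries (log2 fold change 1.08, standard error 0.23, edgeR adjusted p = 0.575). *Lyz2*, the lysozyme of macrophages, had 5.25 to 5.84 CPM against 7.17 to 8.29 CPM. *Cd52*, a surface glycoprotein of leukocytes, had 0.74 to 0.81 CPM against 1.11 to 1.71 CPM. In all, 6 of the 21 were higher and 0 lower at an unadjusted p under 0.05, beside 2.19% of all genes higher. The APP-TKI libraries lay wholly above the WT libraries for 6 and wholly below for 0, beside 4.71% of all genes above. *Apoe*, *Lpl*, *Axl*, *Cd68* and *Gpnmb* of the same list had overlapping libraries. In RNA of whole tissue, fewer or more cells of a type and less or more RNA per cell cannot be told apart.

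The genes best known for this state were below the filter and appear only as low read counts. *Itgax*, the integrin CD11c, had 5, 3 and 4 reads in the WT libraries and 26, 31 and 31 reads in the APP-TKI libraries. *Clec7a*, the receptor Dectin-1, had 4, 7 and 10 reads in WT and 34, 19 and 34 reads in APP-TKI libraries. *Cst7*, cystatin F, had 3, 1 and 6 reads in WT and 14, 18 and 27 reads in APP-TKI libraries. For each of them every APP-TKI library held more reads than any WT library of the batch, as was so for 3.27% of 34813 genes without a filter. With all genes with at least 1 read in the fit, the log2 fold changes were 2.80 for *Itgax* (standard error 0.50, edgeR adjusted p = 5.83e-05), 1.99 for *Clec7a* (standard error 0.44, edgeR adjusted p = 0.00562) and 2.48 for *Cst7* (standard error 0.54, edgeR adjusted p = 0.00408). That fit called 0.238% of all genes and also called *Ttr* and *Ide*, whose libraries overlap. With edgeR's own expression filter the same genes had adjusted p values of 0.254, 0.299 and 0.340. In the DM libraries *Clec7a* had 32, 26 and 30 reads and *Cst7* had 38, 26 and 24 reads, and *Itgax* had 33, 13 and 10 reads. The 6 libraries of batch 2, 3 of WT and 3 of ApoE4 mice with a single human *APOE4* allele, are without mutant *App*. Batch 2 was collected and sequenced separately, with 37518090 to 44630808 reads in genes per library, and its raw reads are not scaled to batch 1. These 6 libraries held 4 to 17 reads of *Clec7a*, 2 to 6 of *Cst7* and 5 to 19 of *Itgax*. The remaining genes of the list under the filter, *Ccl3*, *Ccl4*, *Lgals3* and *Lilrb4a*, had overlapping read counts.

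**Figure D2:**
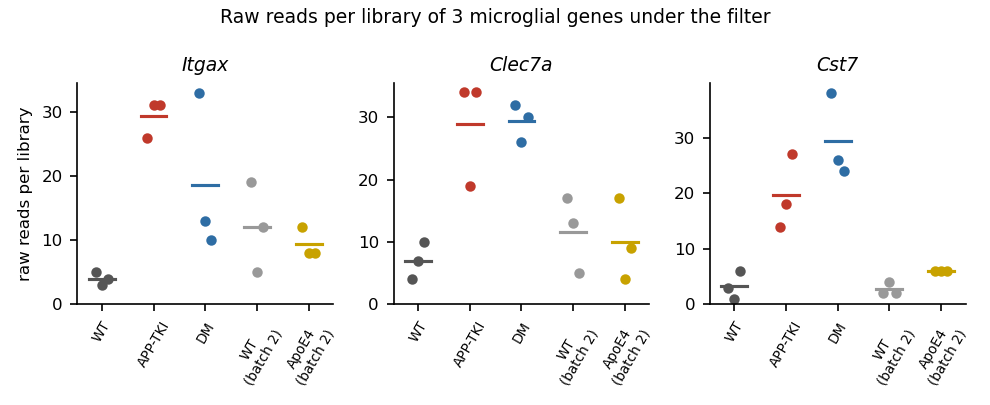
Raw reads per library of *Itgax*, *Clec7a* and *Cst7*, with the y axis from 0, a point per library and a bar at the mean of 3. The APP-TKI libraries of *Clec7a* hold 19 to 34 reads and the WT libraries of the same batch 4 to 10.

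Markers of homeostatic microglia were measured beside these. Of 16 genes, 11 had a higher level, with a median log2 fold change of 0.08. At an unadjusted p under 0.05, 1 was higher, beside 2.19% of all genes, or 3 without WT library 3. The gene that passed with all libraries was *Fcrls*, an Fc receptor-like protein of microglia, at 24.2 to 25.7 CPM in WT and 28.4 to 33.5 CPM in APP-TKI libraries. The APP-TKI libraries lay wholly above the WT libraries for 3 of the 16, *Fcrls*, *Olfml3* and *Aif1*, beside 4.71% of all genes, and wholly below for 0. *P2ry12* (0.00), *Cx3cr1* (-0.06) and *Tmem119* (-0.10), receptors and surface proteins of resting microglia, had overlapping libraries. The summed level of the homeostatic list was 714 to 869 CPM in WT and 761 to 806 CPM in APP-TKI libraries. Its largest part was *Sparc*, at 260 to 366 CPM in WT and 269 to 312 CPM in APP-TKI libraries. Among complement genes *C3ar1* was 1.503 to 1.71 CPM in WT and 1.74 to 2.30 CPM in APP-TKI libraries, and *C3* overlapped between groups.

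ATF4 and its targets, the genes of the integrated stress response, were examined as a list. *Atf4*, on chromosome 15 from 80255184 to 80257541, had 96.3, 109 and 111 CPM in WT and 79.9, 77.8 and 86.7 CPM in APP-TKI libraries. Its log2 fold change was -0.37 (standard error 0.07, edgeR adjusted p = 0.324). *Chac1*, an enzyme that degrades glutathione, had 4.61, 5.24 and 5.59 CPM in WT and 2.97, 2.77 and 3.51 CPM in APP-TKI libraries, a log2 fold change of -0.74 (standard error 0.15, edgeR adjusted p = 0.434). The groups did not overlap for either gene. Of 7 amino acid transporter genes on the list 6 had a lower level, beside 44.5% of all genes, while *Slc1a5* had a log2 fold change of 0.08. The APP-TKI libraries lay wholly below the WT libraries for 3 of the 7, *Slc7a1*, *Slc7a5* and *Slc1a4*, beside 3.56% of all genes. *Slc7a1* had 41.8, 44.7 and 44.5 against 32.2, 34.1 and 37.9 CPM, and *Slc7a5* had 36.7, 44.7 and 43.1 against 29.9, 33.2 and 34.6 CPM. *Mthfd2*, a mitochondrial enzyme of folate metabolism, had 7.74 to 8.59 CPM in WT and 5.10 to 6.36 CPM in APP-TKI libraries. *Atf5*, a related transcription factor, had 23.5 to 28.6 CPM against 19.1 to 19.7 CPM. *Asns*, asparagine synthetase, had 79.0 to 92.2 CPM against 62.8 to 78.3 CPM.

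Of 46 symbols in the ATF4 list, 37 were measured, since 6 are second names of genes already in it and *Trib3*, *Fgf21* and *Gdf15* were under the filter. Lower levels were found for 30 of the 37, beside 44.5% of all genes, with a median log2 fold change of -0.11. At an unadjusted p under 0.05, 11 were lower and 0 higher, beside 1.37% of all genes lower. The APP-TKI libraries lay wholly below the WT libraries for 16 and wholly above for 0, beside 3.56% of all genes lower. Leaving out any single library of the batch gave 27 to 31 genes lower and 10 to 14 at an unadjusted p under 0.05. *Ddit3* (-0.04), the stress factor CHOP, and *Ppp1r15a* (0.09), the phosphatase subunit that ends the response, had overlapping libraries, and so had *Atf3* (0.38). *Psat1* (-0.07) and *Phgdh* (-0.16) of serine synthesis had unadjusted p values of 0.41 and 0.066.

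Promoter sequences of this list are shown because ATF4 binds, as a dimer with C/EBP proteins, a composite site with the core TGATGNAA. The core was searched on both strands, where it reads TTNCATCA, from 250 bases before to 50 after each gene's start in RefSeq (GRCm38.p6). It was found in 3.97% of 32851 promoters, in 2.75% of the 11614 tested genes with a promoter, and in 10 of 28 measured list genes with a promoter (35.7%). The list was written from known ATF4 targets, so this share is not independent of its choice, and a match is not a site of binding. The 250 bases before the start of *Chac1*, chr2:119350992-119351241 on the forward strand, hold 1 match, in capitals, that begins 193 bases before the start.
Chac1: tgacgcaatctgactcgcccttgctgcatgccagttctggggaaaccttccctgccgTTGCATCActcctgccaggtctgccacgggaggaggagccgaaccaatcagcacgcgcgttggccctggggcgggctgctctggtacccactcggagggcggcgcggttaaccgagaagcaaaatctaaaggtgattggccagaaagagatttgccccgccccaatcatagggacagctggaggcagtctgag
Matches of a further 4 of these genes are shown, 3 with a lower and 1 with a higher level, with 8 bases on each side and the core in capitals, on the gene's own strand. They lie at chr6:7693217-7693240 for *Asns*, chr11:20332702-20332725 for *Slc1a4*, chr3:50443664-50443687 for *Slc7a11* and chr1:191183428-191183451 for *Atf3*.
Asns: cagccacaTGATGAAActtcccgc
Slc1a4: ctcctgcgTTGCATCAtctccagc
Slc7a11: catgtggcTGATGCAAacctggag
Atf3: tctcgcacTTGCATCAccaagtcc
The log2 fold changes of these genes were -0.30 for *Asns*, -0.18 for *Slc1a4*, -0.22 for *Slc7a11* and 0.38 for *Atf3*. The genes with a match that are not shown were *Aars* (-0.11), *Gars* (-0.11), *Nupr1* (-0.005), *Vldlr* (0.06) and *Pck2* (0.09), and *Slc7a11* and *Aars* each had 2 matches. Of the 10 list genes with a match 7 had a lower level, with a median of -0.11, and of the 18 without a match 16 had a lower level, with a median of -0.10.

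**Figure D3:**
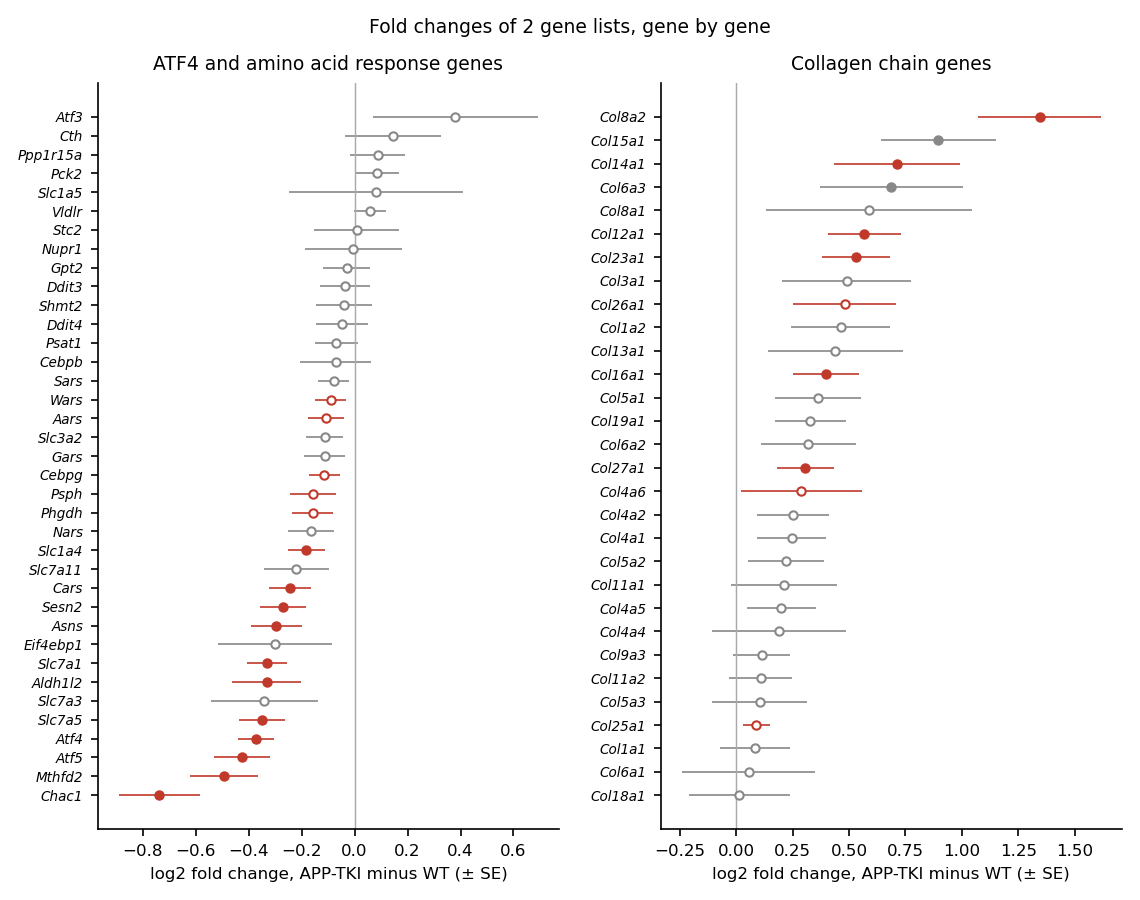
Log2 fold changes (APP-TKI minus WT) with standard errors of the 37 measured genes of the ATF4 list and the 30 measured collagen chain genes. Red marks genes whose WT and APP-TKI libraries do not overlap and filled points an unadjusted p under 0.05, and the collagen values all lie above 0.

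Collagen chains, the fibres and sheets of the matrix made in the brain mainly by meningeal and perivascular fibroblasts and vessel cells, had higher fitted levels for 30 of 30 measured genes, with a median log2 fold change of 0.31. At an unadjusted p under 0.05, 8 were higher and 0 lower, beside 2.19% of all genes higher. There was no overlap with the WT libraries for 9, all higher, beside 4.71% of all genes. *Col8a2*, a chain of short-chain collagen VIII, had 0.81, 0.64 and 0.55 CPM in WT and 1.603, 1.25 and 2.24 CPM in APP-TKI libraries (log2 fold change 1.34, standard error 0.27, edgeR adjusted p = 0.410). *Col23a1*, a transmembrane collagen, had 12.9, 15.2 and 14.6 CPM against 22.1, 16.8 and 22.9 CPM. *Col12a1*, which binds collagen I fibrils, had 8.10 to 9.65 CPM against 10.6 to 16.8 CPM. *Col15a1*, of vascular basement membranes, had 5.30, 4.23 and 2.86 CPM in WT and 8.16, 9.71 and 5.19 CPM in APP-TKI libraries, and its groups overlapped. The abundant *Col4a1* and *Col4a2*, the main chains of the vascular basement membrane, both had log2 fold changes of 0.25 with unadjusted p values of 0.13 and 0.14. *Col25a1*, a membrane collagen of neurons that is known to bind Aβ, had 91.1, 90.5 and 81.9 CPM in WT and 91.8, 91.9 and 96.9 CPM in APP-TKI libraries, a log2 fold change of 0.09. *Col6a4*, which was not on the list, went the other way. The number at an unadjusted p under 0.05 was 13 without WT library 1, 5 without APP-TKI library 2 and 4 without WT library 3, and the number with a higher level was 28 to 30 without any single library. WT library 1 and APP-TKI libraries 1 and 2, with the higher share of noncoding RNA, also had the higher collagen levels of their groups. With that share as a covariate, the median was 0.31 and 15 genes were higher at an unadjusted p under 0.05.

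Markers of cells at the surface and ventricles of the brain were measured beside them. Fibroblast markers, some of them collagens, summed to 333 to 470 CPM in WT and 399 to 517 CPM in APP-TKI libraries. Choroid plexus markers summed to 141 to 230 CPM against 154 to 273 CPM, and ependymal genes to 70.6 to 85.9 CPM against 72.7 to 104 CPM. These sums overlapped between groups, and APP-TKI library 2 had the lowest ependymal and choroid plexus sum of its group. *Enpp2* made up most of the choroid plexus sum, at 108.5 to 163 CPM in WT and 112 to 187 CPM in APP-TKI libraries. *Ptgds* was the largest part of the fibroblast sum, at 162 to 255 CPM against 210 to 274 CPM. Both sums therefore largely follow a single gene. Fitted levels were higher for 19 of 22 fibroblast markers (median 0.24), 13 of 13 choroid plexus markers (0.58) and 19 of 19 ependymal genes (0.41). *Ogn*, the proteoglycan osteoglycin of fibroblasts, did not overlap, at 1.74 to 3.63 CPM in WT and 4.72 to 5.55 CPM in APP-TKI libraries. *Ttr*, the transthyretin of the choroid plexus, had 4.43, 30.0 and 8.18 CPM in WT and 41.4, 9.85 and 22.5 CPM in APP-TKI libraries. The part of these cells in the collagen result was not tested. Leaving out a single library gave medians of 0.35 to 1.04 for choroid plexus and 0.16 to 0.73 for ependymal genes, with 9 of 13 choroid plexus markers higher without APP-TKI library 1 and 13 of 19 ependymal genes higher without APP-TKI library 3. The number of fibroblast markers above WT was 22 without WT library 2 and 16 without WT library 1 or APP-TKI library 3.

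Genes of cholesterol and fatty acid synthesis had higher levels for 29 of 34 measured, beside 55.5% of all genes. The median was 0.07, a size close to the spread of the list between libraries of a group (SD 0.07). Summed levels overlapped, at 3743 to 4232 CPM in WT and 3888 to 4226 CPM in APP-TKI libraries. *Stard4*, a sterol carrier, had 21.5 to 24.4 CPM against 25.6 to 28.8 CPM, and *Insig1*, which holds back sterol synthesis, 50.97 to 60.01 CPM against 60.07 to 67.6 CPM. These sterol-responsive genes did not overlap between groups, *Insig1* by a margin far smaller than its spread. At an unadjusted p under 0.05, 5 genes were higher and 0 lower, beside 2.19% of all genes higher, and this number was 9 without WT library 2, 3 without APP-TKI library 3, 2 without APP-TKI library 1 or WT library 1, 3 without DM library 2, and 1 without WT library 3.

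Peptidases that degrade Aβ had a higher level for 8 of 10 genes, with a median log2 fold change of 0.18. At an unadjusted p under 0.05, 2 were higher and 1 lower, beside 2.19% of all genes higher and 1.37% lower. The number higher was 4 by the robust likelihood ratio test, 1 with TMM scaling and 0 in the fit of all 15 libraries. The median level of the list was higher in each APP-TKI library than in any WT library. Its summed level overlapped between groups, at 194 to 245 CPM in WT and 202 to 206 CPM in APP-TKI libraries. *Mme*, which encodes neprilysin, had 5.998, 6.75 and 7.08 CPM in WT and 8.63, 8.34 and 10.1 CPM in APP-TKI libraries, a log2 fold change of 0.45 (standard error 0.13, edgeR unadjusted p = 0.0046). All APP-TKI values were above all WT values. *Ide*, the insulin-degrading enzyme, had 108, 54.5 and 84.9 CPM in WT and 56.3, 53.5 and 57.0 CPM in APP-TKI libraries, so that WT library 2 lay with the APP-TKI libraries, and it did not pass an unadjusted p under 0.05 without WT library 1. *Mmp9*, a matrix metalloproteinase, had 0.83 to 1.43 CPM against 1.49 to 1.95 CPM. The secretase genes showed small differences, with log2 fold changes of -0.03 for *Bace1*, -0.07 for *Adam10* and -0.08 for *Ncstn*, all with overlapping libraries.

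Of 74 nuclear genes for respiratory chain subunits, 66 stood below WT, with a median of -0.08, a size close to the spread of the list between libraries of a group (SD 0.05). *Ndufa5*, of complex I, had 78.5 to 86.3 CPM in WT and 68.8 to 76.6 CPM in APP-TKI libraries, and *Atp5j2*, of the ATP synthase, had 129 to 140 CPM against 146 to 165 CPM. The APP-TKI libraries lay wholly below the WT libraries for 12 genes, beside 3.56% of all genes, and wholly above for 1. At an unadjusted p under 0.05, 5 were lower, beside 1.37% of all genes, a number that was 22 with the noncoding share as a covariate, 10 without WT library 1, 9 without DM library 1, 3 without WT library 3, 2 without DM library 2, 1 without APP-TKI library 2 and 0 without WT library 2. Cytosolic ribosomal protein genes had a lower level for 57 of 78 (median -0.04), and this number was 73 without WT library 1 and 42 without WT library 3. Protein-coding transcripts of the mitochondrial genome had a lower level for 11 of 13, with a median of -0.10. This median was -0.19 without APP-TKI library 3, -0.18 without WT library 1 and -0.06 without APP-TKI library 1. At an unadjusted p under 0.05, 1 was lower, beside 1.37% of all genes. That number was 5 without WT library 3, 4 without APP-TKI library 3 and 3 without WT library 1. The gene that passed with all libraries, *mt-Nd6*, the complex I subunit encoded on the strand opposite to most mitochondrial genes, had 236, 260 and 247 CPM in WT and 184, 188 and 228 CPM in APP-TKI libraries, and *mt-Tp*, a mitochondrial tRNA of the same strand, 15.8 to 17.3 CPM against 9.06 to 12.4 CPM.

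Genes of neurons were described by list, interneuron genes first. *Cort*, the neuropeptide cortistatin of a subset of interneurons, had 7.79, 7.27 and 7.99 CPM in WT and 4.90, 4.37 and 5.64 CPM in APP-TKI libraries (log2 fold change -0.63, standard error 0.15, edgeR adjusted p = 0.740). *Slc32a1*, the vesicular GABA transporter, had 72.8 ± 2.82 CPM (mean ± SD, n = 3) in WT and 63.1 ± 3.01 CPM in APP-TKI libraries, and *Npy*, neuropeptide Y, 28.1 to 31.9 CPM against 21.3 to 26.5 CPM. The groups did not overlap for these genes, nor for *Sst*, somatostatin, at 228 to 242 CPM against 212 to 223 CPM. The GABA-synthesizing enzymes *Gad1* (-0.02) and *Gad2* (-0.03) and the calcium-binding protein *Pvalb* (0.07) overlapped. Over the list, 14 of 24 had a lower level, or 9 of 24 without APP-TKI library 2, the median was -0.02, and 3 were lower and 0 higher at an unadjusted p under 0.05, beside 1.37% of all genes lower. Activity-induced genes had 18 of 31 lower, with *Fos* at 0.02, *Arc* at 0.22 and *Nr4a3*, the lowest p without overlap, at -0.15. *Grm2*, the presynaptic glutamate receptor mGlu2, had 36.0 to 39.5 CPM in WT and 42.1 to 51.0 CPM in APP-TKI libraries. Markers of CA1 neurons had a lower level for 12 of 13 (median -0.07) and dentate granule markers a higher level for 15 of 19 (median 0.07), and none of the latter had groups that did not overlap. The dentate median was -0.05 without APP-TKI library 2, whose level of the list was the highest of the 6 libraries.

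**Figure D4:**
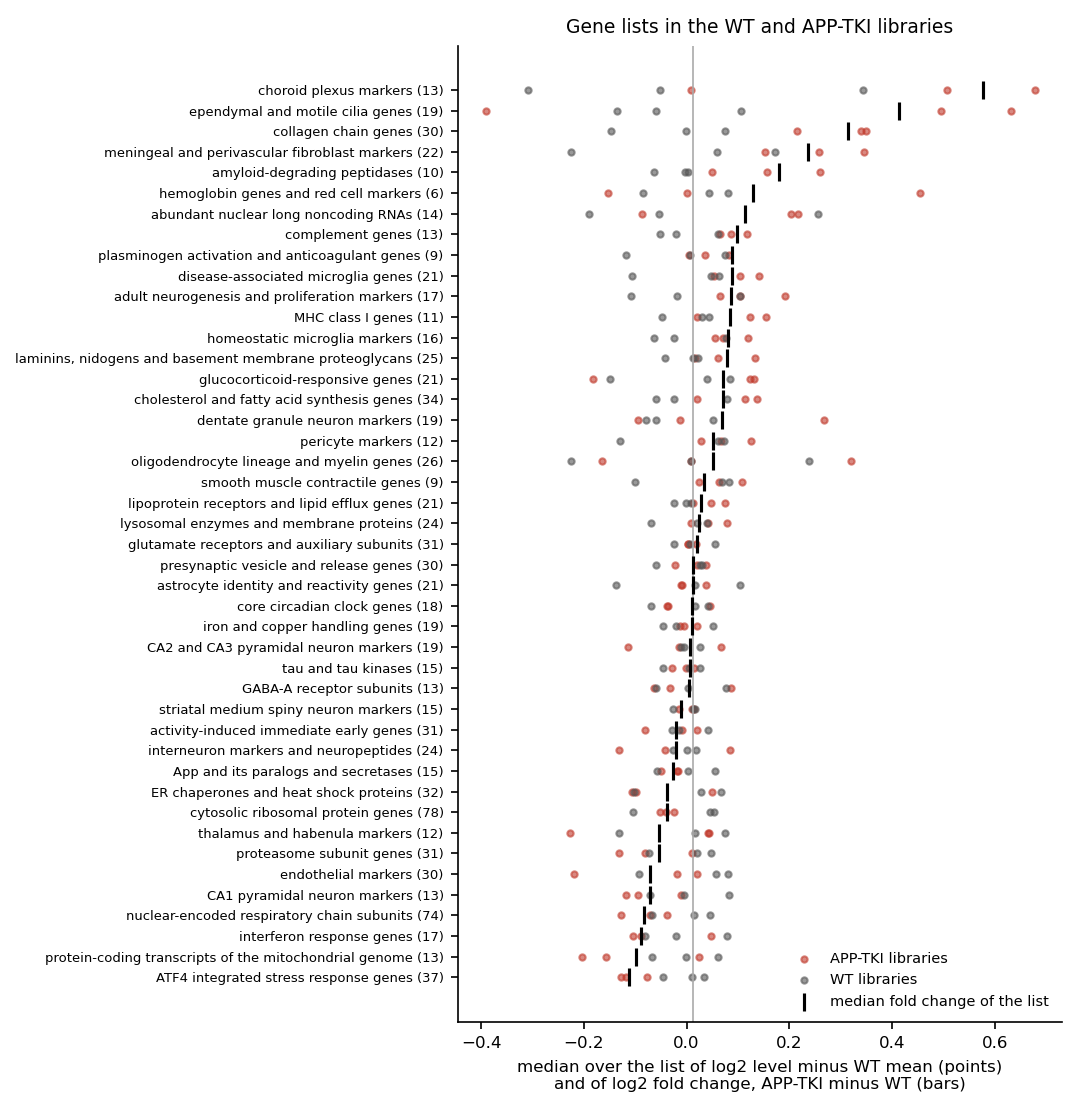
Median log2 fold change (black bars) of 44 gene lists, with the number of measured genes in brackets, and the median level of each list in each WT and APP-TKI library on the log2 scale relative to the WT mean (points, with 0.5 CPM added). The grey line is the median of all 16171 genes, the ATF4 list (median -0.11) stands lowest beside the mitochondrial genome list (-0.10), and choroid plexus and ependymal points of APP-TKI libraries spread over the WT points.

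The DM mice share the mutant *App* alleles and the WT libraries of this comparison, so the DM and APP-TKI differences from WT are not independent. No gene passed an adjusted p under 0.1 by edgeR's quasi-likelihood test for DM minus APP-TKI, and 611 genes (3.78%) had an unadjusted p under 0.05. *Mid1* had 3.94, 3.91 and 3.33 CPM in DM libraries, and *Col6a4* 1.78, 0.83 and 1.05 CPM, within or near the APP-TKI range. The ATF4 list had a median of -0.11 in APP-TKI and -0.09 in DM mice against WT, and 1 of its 37 genes differed between DM and APP-TKI at an unadjusted p under 0.05. *Ccl6*, *Lyz2* and *Trem2* had DM minus APP-TKI log2 differences of -0.03, 0.02 and -0.06 (standard errors 0.22, 0.12 and 0.10). Collagen chain genes had a median of 0.31 in APP-TKI and 0.12 in DM mice against WT, with 22 of 30 higher in DM mice. Their DM minus APP-TKI median was -0.15, 8 of 30 differed at an unadjusted p under 0.05, and their summed level was 404 to 536 CPM in WT, 488 to 581 CPM in APP-TKI and 420 to 532 CPM in DM libraries. Endothelial markers stood above WT for 9 of 30 genes in APP-TKI (median -0.07) and for 27 of 30 in DM mice (median 0.36), and 15 differed between DM and APP-TKI at an unadjusted p under 0.05. The APP-TKI count was 14 of 30 without APP-TKI library 1 or WT library 2. *Cdh5*, the vascular cadherin, had a DM minus APP-TKI log2 difference of 0.73 (edgeR unadjusted p = 0.00088) and *Pecam1* of 0.68. Respiratory chain genes had a median of -0.08 in APP-TKI and 0.06 in DM mice, with 24 of 74 different between DM and APP-TKI at an unadjusted p under 0.05. *Rec8* had 2.40 to 2.88 CPM in DM libraries, between the WT and APP-TKI values.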

How the data were processed

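RNA of whole hippocampus was sequenced from polyadenylated, directional libraries of 15 female mice, 3 in each of 5 groups and 2 batches. The authors deposited raw read counts per gene, made from reads trimmed with Trimmomatic 0.39, aligned with STAR 2.7.1a to the mouse genome (GRCm38) with the human *APOE* RNA added, and counted with HTSeq 0.11.2, per the methods and the submitters' processing notes. Reads of human and mouse *APOE* share 1 row. How HTSeq was set for strand is not stated in these sources, which leaves overlapping, antisense and near-identical genes uncertain. The study's own filter, upper quartile scaling and robust likelihood ratio test followed on these counts and are not in the deposited table.

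From the counts, everything else was computed with R 4.3.3, edgeR 4.0.16, DESeq2 1.42.0, limma 3.58.1, Python 3.11.15, pandas 2.3.3 and matplotlib 3.10.9. Symbols and positions came from a GENCODE release of GRCm38 other than the one the authors used. The low-count filter was more than 1 CPM in 3 or more of the 15 libraries. The 9 libraries of batch 1 were scaled by the upper quartile and fitted with edgeR's quasi-likelihood test, and p-values were adjusted by Benjamini and Hochberg over all 16171 genes. On simulated counts with 200 changed genes, 12.1% of the calls of this test at an adjusted p under 0.1 were false. It recovered 68.7% of the smallest changes simulated. Of the calls of the robust likelihood ratio test on the same counts, 37.8% were false. The 3 libraries of a group bear numbers, and nothing in the labels says that these pair them across groups. Printed CPM values are scaled in the same way.

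The comparison and the 45 gene lists, with 1020 symbols of which 8 had no match, were chosen with earlier results of these data known. Lists are described by counts and medians only. Named are the called genes, up to 10 protein-coding genes on each side with the smallest p, at least 1 CPM on average and no overlap, up to 4 genes of each list with the smallest p, 18 genes that the study discusses, and further genes chosen after their values were seen, among them the microglial genes under the filter. Alternatives were other tests, scalings, filters, thresholds and sets of libraries. Columns not used numbered 0. Some named genes are not reported here.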

Additional observations from a re-analysis of the deposited data

How the results depend on the processing

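Counts of called genes depended on the test and the filter. Against 1 protein-coding gene in the fit reported, edgeR's robust likelihood ratio test called 43, the likelihood ratio test with tagwise dispersions 25, the Wald test of DESeq2 21, and edgeR without a filter 71. The fit of all 15 libraries called 2, *Mid1* and *Nudt3*. With the noncoding share as a covariate 33 were called, *Atf4*, *Chac1*, *Ccl6* and *Col8a2* among them. Leaving out a single library gave 0 to 2 called genes, with 0 without APP-TKI library 2, APP-TKI library 3 or WT library 1, 2 without DM library 1, and *Xlr3b* in place of *Mid1* without APP-TKI library 1. With TMM or median-of-ratios scaling, robust dispersions, edgeR's expression filter, the 6 libraries alone or a threshold of 0.05, the call was *Mid1* alone. At an unadjusted p under 0.05 the number was 1186 without a filter and 1218 with the noncoding share, and 377 to 906 without a single library. Genes with groups that did not overlap numbered 2256 without a filter, against 1337. The median of collagens was 0.24 to 0.45, and that of the ATF4 list -0.16 to -0.10, over all alternatives. Of 102 named genes followed through 21 alternatives, none changed sign. They were picked from these same libraries, without genes of larger p such as *App* and *Apoe*, so a kept sign is no independent check.

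Deviations from the group means of APP-TKI and WT samples with the same number correlated at 0.22, -0.38 and 0.29. Samples with different numbers correlated at -0.51 to 0.41. With 3 samples a group such deviations are tied to each other, so they cannot show whether the numbers pair the samples. With the number as a replicate block 7 genes were called and 871 had an unadjusted p under 0.05. With 3 libraries a group an exact permutation test of a single gene cannot go below a p of 0.1. For genes near 1 CPM, such as *Col8a2* with 20 to 28 reads in each WT library, counting error is part of the spread.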

Other observations

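Genes of other programs were also measured. *Bok*, a BCL2 family member listed among CA2 and CA3 markers, had 63.4, 69.95 and 69.4 CPM in WT, 56.9, 56.0 and 43.6 CPM in APP-TKI and 40.9, 48.8 and 45.7 CPM in DM libraries, with an APP-TKI minus WT log2 fold change of -0.37. *Ctsk*, the lysosomal protease cathepsin K, had 1.19 to 1.49 CPM in WT and 1.63 to 3.12 CPM in APP-TKI libraries. *Bhlhe40*, a clock-linked repressor, had 107 to 119 CPM against 83.2 to 105 CPM, and *Npas2*, an activator of the clock, 20.4 to 25.7 CPM against 25.9 to 28.8 CPM. *Mapt*, the tau gene, had a log2 fold change of 0.03 and *Gsk3b*, a tau kinase, of -0.06, both with overlapping libraries.

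*Xlr3b*, of a multicopy X-linked family, had 1.51, 0.80 and 1.16 CPM in WT and 1.28, 5.68 and 6.19 CPM in APP-TKI libraries, so that 1 APP-TKI library lay within the WT range. Pituitary hormone genes were near 0 in most libraries, with *Prl* at 0.87 CPM in APP-TKI library 2 and 1.63 CPM in DM library 2.

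With genes split into 4 bins by exonic length, the bin with the longest transcripts had 62.3% of genes higher in APP-TKI mice and the bin with the shortest 47.6%, with median log2 fold changes of 0.02 and -0.01.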
